A study of Mus musculus with 16 samples.

Results

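The aryl hydrocarbon receptor gene Ahr, the gene of its partner Arnt and 4 of its classical targets (Ahrr, Tiparp, Cyp1a1 and Cyp1b1) were followed in B cells from the spleens of AM14 mice. These 6 genes were taken by gene name among the non-control spots of each array, which gave 11 probes of 55681. The set was chosen by the large ratio of Ahr at 6 h and its course over genotype and time in these same arrays, so those values are given as a description. AM14 is a strain whose B cells bear an antigen receptor that binds IgG. Cells were WT, lacked Tlr7 (Tlr7-/-), lacked Tlr9 (Tlr9-/-) or lacked both (Tlr7/9-/-), and every group, WT included, was of the AM14 strain. The products of Tlr7 and Tlr9 sense RNA and DNA, respectively, in endosomes. Cells were unstimulated (0 h) or had been given PL2-3, a chromatin-binding monoclonal antibody, for 6, 24 or 42 h. Every genotype at every time was read on a single 2-colour array, 16 arrays in all, carrying the sample in Cy5 and, in Cy3, pooled RNA of unstimulated AM14 B cells of the 4 genotypes. Values are log2 ratios of sample to pool, so that 0 is the level of the pool and 1 is a doubling. The sources used here do not give sex, age, breeding, purity, antibody dose or whether mice were pooled.

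The aryl hydrocarbon receptor (AHR) is a transcription factor of the bHLH-PAS family that waits in the cytosol in a complex with HSP90 and p23. After binding a ligand, such as an environmental aromatic compound or a product of tryptophan, it moves to the nucleus, pairs with ARNT and binds DNA at a core motif, GCGTG. Its targets include enzymes that oxidise ligands (Cyp1a1 and Cyp1b1) and feedback inhibitors, AHRR, which competes for ARNT, and TIPARP, which ADP-ribosylates the receptor. In mouse B cells Ahr is known to be induced on activation.

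There were no replicates, so a test set a difference against how far genotypes or times varied, and precision is limited by the number of arrays. WT and Tlr7-/- samples shared slide 1 while Tlr9-/- and Tlr7/9-/- samples shared slide 2, so the loss of Tlr9 and the slide cannot be told apart. No culture without PL2-3 is among the samples, so effects of the antibody and of culture itself cannot be told apart either. Between 37.4% and 62.7% of probes were well above background in Cy5, and no spot was saturated. A Tlr7 probe ranged from 0.90 to 1.48 in WT and from -0.73 to -0.02 in Tlr7-/- cells. On it Tlr9-/- (0.32 to 1.71) and Tlr7/9-/- cells (-0.58 to 0.41) overlapped. Of the other Tlr7 probes, 1 parted WT from Tlr7-/- cells likewise and 1 was above background on no WT array. The Tlr9 probe was above background on all 4 arrays of Tlr9-/- cells (-1.14 to 0.04, against -0.84 to -0.05 in WT). Whether these probes lie in the deleted parts is unknown here. All 6 B cell markers on the list were above background on every array. In bulk RNA, fewer cells of a type and less RNA per cell cannot be told apart.

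Ahr was read by 2 probes, and their first 30 bases are shown because they gave responses of very different size. The brighter one lies at chr12:36182724-36182783 and the dimmer at chr12:36188523-36188582 (mm9 build, minus strand). No letters are capitalised, as none marks a motif. No annotation of that build was used here, so the exon or UTR they lie in was not determined.
Ahr brighter probe: ccttgctgtcctttaaactgttacttgctt
Ahr dimmer probe: ttagattttgtcagttgtttacaagttcct

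For the targets, RefSeq promoter windows on GRCm38.p6 were searched for GCGTG on both strands over the 250 bases before the start of transcription. A window was listed for 5 of the 6 genes, and all 5 held at least 1 copy, as did 28.2% of 32851 windows of the same length. Ahrr held 3 copies, on the forward strand and starting 107, 82 and 27 bases before the start, a number reached by 2.77% of windows. Cyp1a1, Cyp1b1, Tiparp and Arnt held 1 copy each. The windows of 3 targets are shown: Ahrr (chr13:74292332-74292581, minus strand), Cyp1a1 (chr9:57697363-57697612, plus strand) and Tiparp (chr3:65528197-65528446, plus strand). At 42 h their ratios on both arrays without Tlr9 lay above those on both arrays with it, an order found for 26.2% of 22953 genes. For Cyp1a1 only the Tlr7/9-/- array was above background at that time. Capitals mark GCGTG, or CACGC where it lies on the other strand.
Ahrr: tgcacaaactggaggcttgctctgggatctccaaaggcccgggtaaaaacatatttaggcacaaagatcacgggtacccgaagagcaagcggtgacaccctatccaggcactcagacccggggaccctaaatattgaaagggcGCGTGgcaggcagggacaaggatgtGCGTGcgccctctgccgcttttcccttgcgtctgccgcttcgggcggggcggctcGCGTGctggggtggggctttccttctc
Cyp1a1: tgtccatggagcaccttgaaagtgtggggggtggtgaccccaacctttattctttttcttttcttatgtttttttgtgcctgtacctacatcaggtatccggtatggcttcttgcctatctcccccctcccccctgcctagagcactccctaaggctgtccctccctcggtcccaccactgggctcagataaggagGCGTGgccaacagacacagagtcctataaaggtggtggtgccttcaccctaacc
Tiparp: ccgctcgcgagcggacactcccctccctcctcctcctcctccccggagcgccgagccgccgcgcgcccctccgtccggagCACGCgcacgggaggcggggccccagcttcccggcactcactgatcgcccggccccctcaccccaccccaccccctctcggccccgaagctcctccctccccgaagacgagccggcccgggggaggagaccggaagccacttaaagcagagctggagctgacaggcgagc
A match of letters is a description and does not show that the receptor binds there.

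Ahr went from the level of the pool to one of the highest ratios on the array within 6 h in all 4 genotypes, and then parted by genotype. Its ratio in WT cells was 0.11 at 0 h, 4.54 at 6 h, 3.39 at 24 h and 0.94 at 42 h. Tlr7-/- cells followed the same course, with 0.10, 4.87, 3.28 and 1.17. In Tlr9-/- cells the values were -0.02, 5.67, 3.84 and 4.86. Cells lacking both receptors kept a plateau, with -0.01, 4.65, 4.76 and 4.78. At 6 h the lowest array stood at 4.54 and the highest at 5.67. At 42 h both arrays without Tlr9 lay above 4.7, and both with Tlr9 lay below 1.2.

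**Figure D1:**
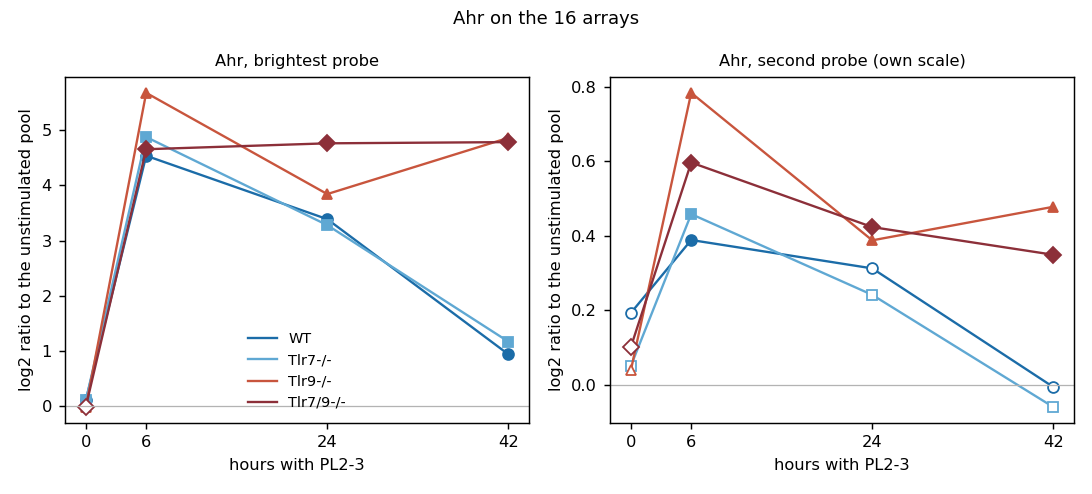
Log2 ratio of Ahr to the unstimulated pool against hours with PL2-3, 1 point per array, for the brighter probe (left) and the dimmer probe (right, on its own scale). Filled points are well above background in Cy5 and open points are not; on the left the lines of cells without Tlr9 end at 4.86 and 4.78, those of cells with Tlr9 at 0.94 and 1.17.

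As a fold over the genotype's own 0 h array, the size of the difference depended on the channel used. In the Cy5 channel alone, after normalization between arrays, Ahr stood 32.8-fold above 0 h in WT and 27.6-fold above it in Tlr7-/- cells at 6 h. In Tlr9-/- and Tlr7/9-/- cells it was not above background at 0 h, so the fold was taken against the higher of the array's background level and the probe's own signal. It was at least 70.7-fold in Tlr9-/- and at least 44.0-fold in Tlr7/9-/- cells in that channel. The ratios of the same 6 h arrays gave 21.5-fold in WT, 27.3-fold in Tlr7-/-, 51.6-fold in Tlr9-/- and 25.3-fold in Tlr7/9-/- cells, below the Cy5 values in every genotype, and the pool was above background for this probe on 10 of 16 arrays and on none of the WT arrays. At 42 h the Cy5 folds were 2.36 in WT and 2.09 in Tlr7-/- cells, and at least 34.1 in Tlr9-/- and at least 29.9 in Tlr7/9-/- cells. These values describe single arrays and carry no p-value, because the course of Ahr was known when the gene was chosen.

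A difference of at least 1 log2 unit upwards at 6 h, which Ahr passed in every genotype, was reached by 9.43% of genes in WT, 9.71% in Tlr7-/-, 10.3% in Tlr9-/- and 8.3% in Tlr7/9-/- cells.

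The dimmer probe also put both arrays without Tlr9 above both with it at 42 h, on a much smaller scale. Its ratios in WT were 0.19, 0.39, 0.31 and 0.00 at the successive times, and in Tlr7-/- cells 0.05, 0.46, 0.24 and -0.06. In Tlr9-/- cells they were 0.04, 0.78, 0.39 and 0.48, and in Tlr7/9-/- cells 0.10, 0.60, 0.42 and 0.35. It was above background on 8 of 16 arrays, namely all 4 at 6 h and the arrays without Tlr9 at 24 and 42 h. Its size is therefore bounded by background, and the mean of both probes put the 6 h difference of WT, Tlr7-/- and Tlr9-/- cells at 2.71 against 4.96 with the brighter probe.

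Ahrr, the receptor's repressor, appeared later than Ahr and showed a split in the same direction at 42 h, with its nearest arrays 0.75 apart. A larger gap in this direction was found for 1.65% of genes, and the order alone for 26.2%. In WT cells the ratio of Ahrr was -0.05, -0.01, 0.91 and 0.08 over the 4 times. Tlr7-/- cells gave 0.02, 0.14, 1.12 and 0.02. In Tlr9-/- cells it was -0.13, 0.28, 0.61 and 0.82, and in Tlr7/9-/- cells 0.18, 0.04, 1.39 and 1.29. It was not above background on any array at 0 or 6 h and was above it on 7 of 16 arrays in all. At 24 h all 4 arrays were above background, at least 1.76-fold over 0 h in WT, 2.33-fold in Tlr7-/-, 1.69-fold in Tlr9-/- and 2.60-fold in Tlr7/9-/- cells. By 42 h the values without Tlr9 were at least 2.58-fold and at least 2.50-fold over 0 h, and the bound in Tlr7-/- cells was 1.04-fold. A second Ahrr probe was above background on no array.

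Tiparp, which encodes an ADP-ribosyltransferase induced by the receptor, changed little beside Ahr. Its brighter probe gave 0.34, 0.44, -0.36 and -0.30 in WT and 0.06, 0.43, -0.25 and -0.55 in Tlr7-/- cells. In Tlr9-/- cells it gave -0.22, 0.47, -0.67 and 0.04. In Tlr7/9-/- cells all values were above the pool, at 0.11, 0.60, 0.50 and 0.29. The second Tiparp probe followed the same courses and ended at 0.07 in WT, -0.18 in Tlr7-/-, 0.51 in Tlr9-/- and 0.47 in Tlr7/9-/- cells. On both probes the arrays without Tlr9 lay above those with Tlr9 at 42 h, and at 6 h the 4 arrays lay close together.

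Cyp1a1, the best known target, was above background on 1 array, that of Tlr7/9-/- cells at 42 h. The ratio there was 1.02, at least 1.88-fold over 0 h in Cy5, and the other genotypes stood at 0.07 in WT, -0.23 in Tlr7-/- and 0.20 in Tlr9-/- cells at that time. Cyp1b1 was above background in Cy5 on 1 array, WT at 0 h, and its ratios over all arrays ranged from -0.13 to 0.15. Neither enzyme gene entered a test, since neither was above background in either colour on 3 arrays.

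Arnt, the partner of the receptor, was read by 3 probes that disagreed, and the pair that rose above background is shown by its first 30 bases. The brighter lies at chr3:95301081-95301140 and the other at chr3:95299434-95299493 (mm9 build, plus strand).
Arnt brighter probe: ccatctgtgctaagccttaactgtggcaaa
Arnt second probe: tttccaccccttgacttgctgaagaaacgt
The brighter probe stood below the pool after stimulation, at -0.70, -0.78 and -0.24 in WT cells and at -0.70, -0.64 and -0.38 in Tlr7-/- cells at 6, 24 and 42 h. The second probe gave 0.01, 0.31 and 0.42 in WT and 0.14, 0.45 and 0.49 in Tlr7-/- cells at the same times. In Tlr7/9-/- cells the brighter probe was already at -0.57 at 0 h and then at -0.50, -0.34 and -0.34. In Tlr9-/- cells it gave -0.28, -0.41, -0.99 and -0.55 over the 4 times. Since the probes differ in sign, no direction is given for Arnt.

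**Figure D2:**
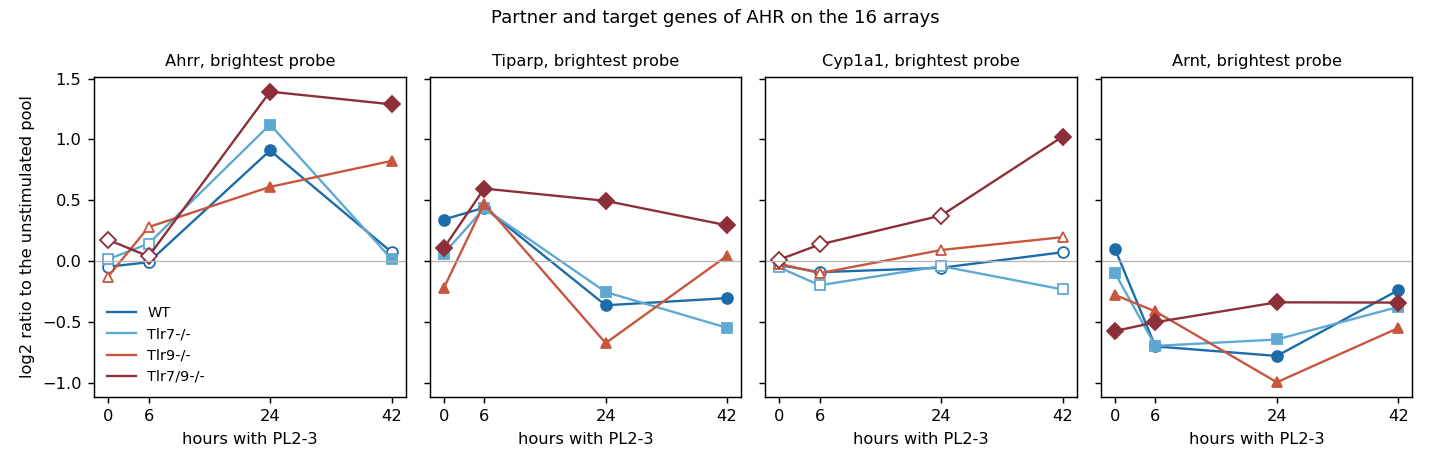
Log2 ratio to the unstimulated pool of the brightest probe of Ahrr, Tiparp, Cyp1a1 and Arnt against hours with PL2-3, 1 point per array, filled where well above background in Cy5. Ahrr is near 0 on every array at 0 and 6 h, and Cyp1a1 has a single filled point, at 1.02 in Tlr7/9-/- cells at 42 h.

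The sign of the small changes depended on scaling. Centring each array on its median in place of the intensity-dependent loess moved the median of all genes from near 0 to 0.23 in the 6 h difference and in the 24 h one (WT, Tlr7-/- and Tlr9-/- cells). With it, the 24 h difference of Tiparp turned from -0.49 to 0.14 and the 6 h difference of Arnt from -0.51 to 0.06, which is 0.09 and 0.17 below that median. The 6 h difference of Ahr was 5.93 with it, 5.70 above the median, and its 42 h split was 3.90. The 42 h split of Ahrr was 1.17 and that of Tiparp 0.45 with median centring, both in the direction given above. The size of the Ahrr split depended on how background was handled, with 2.13 from Agilent's processed signals and 1.48 with an offset of 10.

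Without Tlr9 against with Tlr9 at single times, a comparison chosen after the values were seen and so not tested, Ahr differed little at 0 h (by -0.12) and at 6 h (by 0.46). The difference was 0.97 at 24 h, where the Tlr9-/- array (3.84) lay closer to WT (3.39) than to Tlr7/9-/- cells (4.76), and 3.77 at 42 h (means 4.82 and 1.06). The nearest arrays of the pair of groups lay 3.61 apart at 42 h. Both arrays without Tlr9 lay at least 1 log2 unit above both with it for 0.954% of 22953 genes at 42 h. At 0 h this held for 0 genes, but there unstimulated cells were read against a pool of unstimulated cells. The SD of log2 ratios was 0.15 to 0.28 on those arrays, so such a gap could hardly arise, whatever the slide. At 42 h the ratios of Ahrr differed by 1.01, but its WT array was not above background and the pool was above it on 1 of 16 arrays, so the size is bounded by background. Tiparp differed by 0.60 on the brighter probe and by 0.55 on the other, and Arnt by -0.14. Of all genes, 26.2% had both arrays without Tlr9 above both with it at 42 h, whatever the size. The order alone of Ahrr and Tiparp is therefore common.

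**Figure D3:**
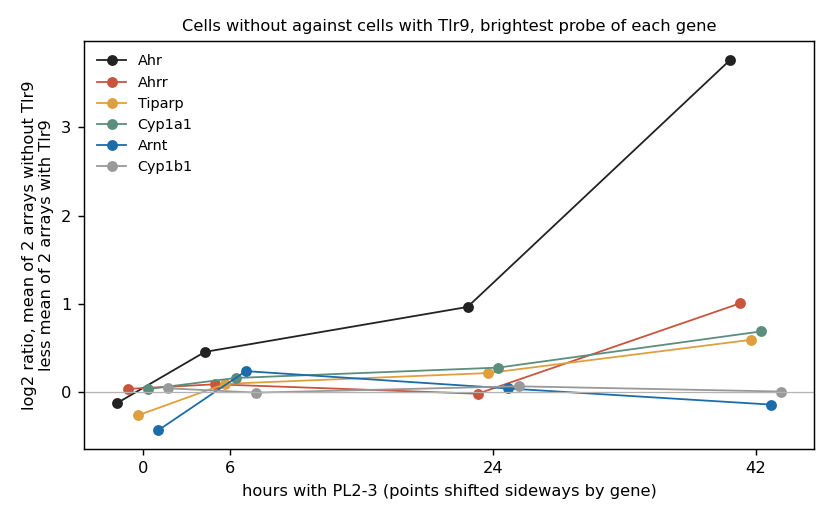
Mean log2 ratio of the 2 arrays without Tlr9 less that of the 2 arrays with Tlr9, for the brightest probe of each of the 6 genes, against hours with PL2-3 (points shifted sideways by gene). Ahr reaches 3.77 at 42 h and Ahrr 1.01, while the 6 genes lie between -0.43 and 0.05 at 0 h; Cyp1a1 and Cyp1b1 were each above background on 1 array in all, so their points lie mostly at background.

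Cell type markers were measured beside this split. At 42 h the summed Cy5 signal of 6 B cell markers was 96330 to 101400 with Tlr9 and 102700 to 105500 without it. Myeloid markers (7 of 8 above background without Tlr9, 5 to 8 with it) summed to 4524 to 6546 with Tlr9 and 6431 to 9820 without, whereas their median log2 ratio to the pool lay from -1.64 to -1.48 with Tlr9 and from -1.84 to -1.62 without, and both measures overlapped. The 4 dendritic cell markers summed to 19920 to 26730 with Tlr9 and 27740 to 30720 without, and their median ratio went the other way, at -0.88 to -0.80 with Tlr9 and -1.23 to -1.15 without. The 5 T cell markers summed to 2461 to 3809 with Tlr9 and 1546 to 1968 without. NK cell markers, 2 or 3 of 4 above background in either group, summed to 509.7 to 749.9 with Tlr9 and 578.5 to 698.6 without. The 3 erythroid markers measured, all above background, summed to 9348 to 11190 with Tlr9 and 10240 to 22970 without. Median ratios of B cell markers were -2.03 to -1.92 with Tlr9 and -1.77 to -1.55 without. Those of T cell markers were -0.22 to 0.01 with it and -0.44 to -0.37 without. Erythroid median ratios were -4.49 to -4.33 with it and -3.97 to -2.78 without, so each of these lists parted by Tlr9. NK cell median ratios overlapped, at -1.035 to -0.79 with it and -1.17 to -0.78 without. Cd8a and Klrb1c were above background on no array at 42 h. The part of these cells in the level of Ahr was not tested. Signal over background was also uneven at 42 h, with 40.9% of probes above it in WT, 62.7% in Tlr7-/-, 53% in Tlr9-/- and 51.5% in Tlr7/9-/- cells, and its part was not tested.

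Averaged over 6, 24 and 42 h, and as a description because the genotype course of Ahr chose the set, Ahr was 1.84 ± 0.74 log2 units (SE) higher in Tlr9-/- than in WT cells, higher at 3 of 3 times. It was 1.68 higher in Tlr9-/- than in Tlr7-/- cells, at 3 of 3 times, and 1.62 higher in Tlr7/9-/- than in Tlr7-/- cells, at 2 of 3 times. These averages rested mostly on 42 h: with that time left out they were 0.80, 0.68 and 0.63, in the same order. Tlr7-/- cells differed from WT by 0.34 at 6 h, by -0.11 at 24 h and by 0.23 at 42 h. Without Tlr9, loss of Tlr7 went with differences of opposite sign, as Tlr7/9-/- cells stood 1.02 below Tlr9-/- cells at 6 h, 0.92 above them at 24 h and 0.08 below them at 42 h, with a mean difference of -0.06. Against the other 3 genotypes together Tlr7/9-/- cells had Ahr 1.11 higher (0.44 without 42 h), above all 3 at 1 of 3 times.

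Whether a genotype shifted the other genes of the set over the 3 stimulated times was asked with limma across all genes, with p-values adjusted by Benjamini-Hochberg. No test of Ahrr, Tiparp or Arnt passed an adjusted p of 0.05: 18 tests over 6 comparisons had a lowest adjusted p of 0.126, and 4 of them had an unadjusted p under 0.05. Few of the 22966 genes passed at all: 0.00435% in Tlr7-/- against WT, 0.0566% in Tlr9-/- against WT, 0.126% in Tlr9-/- against Tlr7-/-, 0.0435% in Tlr7/9-/- against Tlr9-/- and 1.26% in Tlr7/9-/- against Tlr7-/- cells. For the double knockout against the other genotypes 0 genes passed, with 19.1% at an unadjusted p under 0.05. That unadjusted share was 5.89% in Tlr7/9-/- against Tlr9-/- and 19.8% in Tlr7/9-/- against Tlr7-/- cells. The 4 member tests under 0.05 unadjusted lay in these comparisons of Tlr7/9-/- cells.

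Tiparp came nearest to a call. In Tlr7/9-/- cells it was 0.55 ± 0.15 (SE) above the other genotypes, at 3 of 3 times, with a limma p of 0.00416 that became 0.126 after adjustment. It was 0.58 higher than in Tlr7-/- cells (adjusted limma p 0.163) and 0.51 higher than in Tlr9-/- cells (adjusted limma p 0.821). Ahrr was 0.47 higher in Tlr7/9-/- cells than in the others (adjusted limma p 0.256), higher than all others at 2 of 3 times.

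Other genes of the pathway were tested for their difference from 0 h over WT, Tlr7-/- and Tlr9-/- cells, with genotype as a term. Of 22492 genes 22.9% rose and 23.9% fell at 6 h with loess. With median centring 7978 rose and 2556 fell, so this balance depended on the scaling. With loess the shares were 22.7% and 26% at 24 h and 17.3% and 20.7% at 42 h. Among 9 genes of the receptor complex and its coactivators, 4 rose and 3 fell at 6 h, and their median of 0.13 lay close to the median of all genes (0.00). The chaperone gene Hsp90ab1, whose protein holds the unliganded receptor, rose by 1.87 ± 0.10 (SE) at 6 h (adjusted limma p 9.42e-07) and stood 1.73 above 0 h at 24 h and 1.36 at 42 h, past the threshold at each time. In Tlr7/9-/- cells, outside that fit, it went from 0.30 to 1.68 at 6 h. The related chaperone gene Hsp90aa1 rose by 0.99 ± 0.13 (SE) at 24 h (adjusted limma p 0.000244), but did not pass with Tlr7/9-/- cells added to the fit (0.57, adjusted limma p 0.0644).

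The genes Ncoa1 and Ncoa3, which encode p160 coactivators, went the other way. Ncoa1 fell by 1.68 at 6 h (adjusted limma p 0.000109). Ncoa3 fell by 1.73 at 6 h, fell by 2.33 at 24 h and fell by 1.89 at 42 h. Dnaja1, a co-chaperone of the HSP70 system, fell by 1.06 at 42 h (adjusted limma p 0.000846). Ncoa3 was the only gene of the 5 pathway lists past the threshold in a comparison between genotypes. It was 0.92 ± 0.16 (SE) higher in Tlr7/9-/- than in Tlr7-/- cells (adjusted limma p 0.041), and leaving out 6, 24 or 42 h gave differences of 0.997, 0.766 and 0.999 with adjusted limma p of 0.185, 0.191 and 0.114. With median centring 5 genes of the list rose and 2 fell at 6 h, and Dnaja1 did not pass at 42 h (adjusted limma p 0.218). In the Cy5 channel alone Ncoa3 did not pass at 6 h (adjusted limma p 0.0855) or at 42 h (0.0553), and its genotype difference did not pass there (0.98, adjusted limma p 0.0673), with processed signals (1.004, 0.127) or with median centring (0.38, 0.22). With median centring Hsp90aa1 and Hsp90ab1 passed in that comparison instead, as lower in Tlr7/9-/- cells. Under that scaling 2443 of 22966 genes passed there as lower and 106 as higher, with a median of all genes of -0.209.

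Of 12 genes of tryptophan uptake and breakdown, routes that yield AHR ligands, 7 could be tested, and 2 rose and 3 fell at 6 h. Slc7a5, the large neutral amino acid transporter, rose by 3.63 ± 0.16 (SE) at 6 h (adjusted limma p 2.98e-07), 2.70 at 24 h and 2.22 at 42 h. Its 6 h ratios were 3.46 in WT, 3.43 in Tlr7-/-, 3.44 in Tlr9-/- and 3.55 in Tlr7/9-/- cells, so all genotypes lay close together. At 24 h it stood at 2.62, 2.35 and 2.60 in WT, Tlr7-/- and Tlr9-/- cells but at 1.42 in Tlr7/9-/- cells, and at 42 h at 1.85, 2.41, 1.87 and 1.77 in the 4 genotypes. At 42 h the Slc7a5 arrays with and without Tlr9 overlapped. Il4i1, a gene of the same list named here after its values were seen, parted by Tlr9 at 42 h. Its ratio was -0.44 in WT and -0.24 in Tlr7-/- cells, against 1.53 in Tlr9-/- and 1.82 in Tlr7/9-/- cells. A split of at least 1 log2 unit in this direction was found for 0.954% of 22953 genes, and that of Il4i1 was not tested. Genes of the kynurenine route that passed the test fell. Haao fell by 3.34 ± 0.20 (SE) at 6 h (adjusted limma p 1.62e-06) and by 0.77 at 42 h, Kmo by 1.93 at 6 h, and Afmid by 1.36 at 24 h and 0.88 at 42 h. With median centring 3 genes of the list rose and 3 fell at 6 h, and Haao at 42 h did not pass (adjusted limma p 0.191). Ido1, Ido2, Slc7a8, Tdo2 and Tph1 were too dim to test.

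The other bHLH-PAS genes gave 2 rises and 3 falls among 13 tested at 6 h, and 0 rises with 3 falls at 24 h and 4 at 42 h. Arntl, the clock partner related to Arnt, fell by 1.34 ± 0.11 (SE) at 6 h (adjusted limma p 6.89e-06), 1.09 at 24 h and 1.19 at 42 h. Arntl2 fell by 0.95 at 6 h and 0.66 at 24 h, and the clock gene Per2 rose by 0.94 at 6 h (adjusted limma p 0.00517). Epas1 fell by 0.78 at 24 h and 0.54 at 42 h, but with median centring its 24 h value was 0.02. Hif1a, which shares ARNT with the receptor, was 0.18 ± 0.09 (SE) above 0 h at 6 h (adjusted limma p 0.144) and 0.04 below it at 24 h, where median centring gave a rise of 0.54 (adjusted limma p 0.0179). It fell by 0.49 at 42 h (adjusted limma p 0.00256). With median centring the list had 5 rises and 2 falls at 6 h. Arntl2 at 24 h and Epas1 and Hif1a at 42 h did not pass with median centring, in Cy5 alone or without Tlr7-/- cells (adjusted limma p from 0.062 to 0.322).

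Xenobiotic enzyme genes were mostly silent on these arrays. Of 9 on the array, 3 were bright enough to test, and 0 rose at any time in the fit over WT, Tlr7-/- and Tlr9-/- cells. One of the 3, Ugt1a6b, a UDP-glucuronosyltransferase gene named here after its values were seen, did not pass at 42 h (0.61 ± 0.41 SE, adjusted limma p 0.277), where its arrays parted by Tlr9. At 42 h its ratio was 1.63 in WT and 1.20 in Tlr7-/- cells, against -0.77 in Tlr9-/- and -0.58 in Tlr7/9-/- cells, the opposite order to Ahr, and this split was not tested. A split of at least 1 log2 unit in this direction was found for 1.44% of 22953 genes. The Tlr9-/- array at 42 h was not above background in Cy5 for this gene, so the size of the split is bounded by background. Genes of the Ugt1a family share exons, so the probe may read other members. The targets Nqo1 and Cyp1a2 were among those too dim. Aldh3a1 fell by 0.45 at 24 h (adjusted limma p 0.0022) and 0.30 at 42 h, although its 42 h value was 0.07 in the Cy5 channel alone. Nfe2l2, the oxidative stress regulator, fell by 0.47 at 24 h and 0.69 at 42 h, but was 0.18 above 0 h at 24 h with median centring. Under that scaling 0 genes of the list passed at any time, and without Tlr7-/- cells Nfe2l2 did not pass (adjusted limma p 0.143 at 24 h and 0.0605 at 42 h), nor did Aldh3a1 at 42 h (0.153).

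Among 8 tested genes linked to AHR in lymphocytes, 1 rose and 3 fell at 6 h. Lgals3, a galectin, fell by 2.48 ± 0.21 (SE) at 6 h (adjusted limma p 9.03e-06), fell by 3.04 at 24 h and fell by 1.94 at 42 h. Bach2, a repressor of plasma cell fate, fell by 0.66 at 6 h and 0.79 at 24 h, with median-centred values of 0.05 and 0.01. Entpd1, which encodes CD39, was above background on 2 of the 3 arrays of the fit at 0 h and on 0 of 3 at 6 h. It fell by 1.01 at 6 h and was 0.63 lower at 24 h and 0.60 lower at 42 h, with a size bounded by background. Ccno passed at 42 h (0.45, adjusted limma p 0.0223), at least 1.24-fold, from below background on all 3 arrays at 0 h. Without Tlr7-/- cells neither Bach2 (adjusted limma p 0.189 at 6 h and 0.109 at 24 h) nor Ccno (0.25) passed, and with median centring the list had 2 rises and 2 falls at 6 h. Beside these falls, summed myeloid markers went from 15540 to 20230 at 0 h to 5140 to 6944 at 6 h, and summed B cell markers from 230700 to 310500 to 48990 to 67690, over all 4 genotypes. Their part in the falls was not tested.

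**Figure D4:**
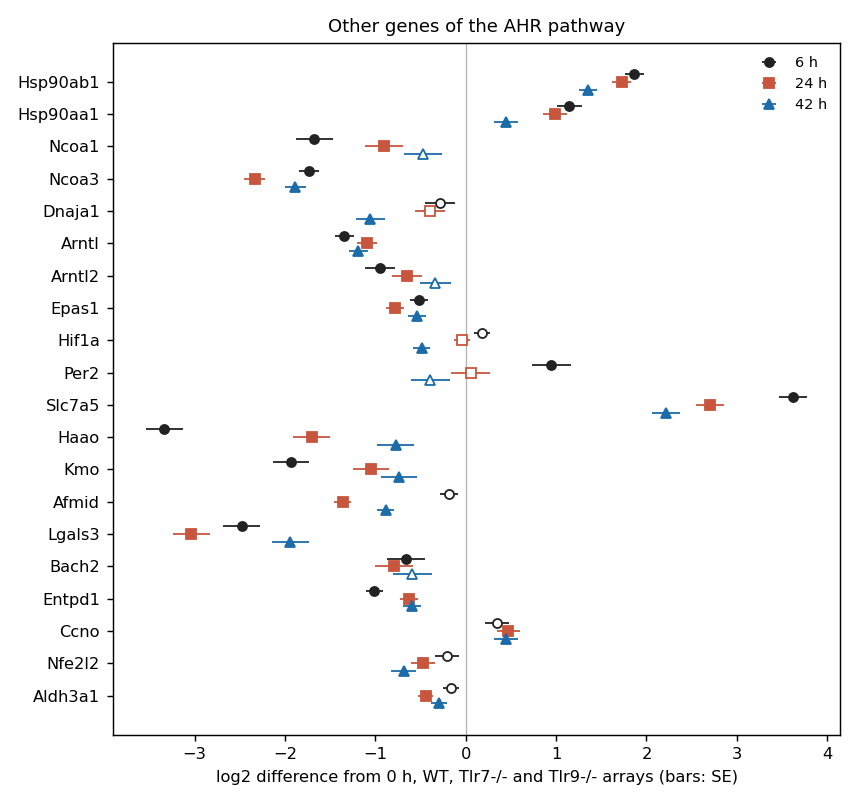
Log2 difference from 0 h (bars are SE) of named genes of the AHR pathway at 6, 24 and 42 h, from the fit over WT, Tlr7-/- and Tlr9-/- arrays. Filled points pass an adjusted p of 0.05, and Ugt1a6b and Il4i1 are not drawn. Slc7a5 (3.63 at 6 h) and Hsp90ab1 (1.87) lie to the right, Haao (-3.34), Lgals3 (-2.48) and Ncoa3 (-1.73) to the left.

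The genes whose ratios most resembled those of Ahr were picked over all 16 arrays, which share genotypes, times, slides and the pool, so a like course, its 42 h split included, follows from the choice and is a description. Among 15299 named genes above background on at least 3 arrays, those with the highest Pearson correlation to Ahr were Nfkbie (r 0.985), Mfsd12 (0.982), Egr2 (0.979), Casp4 (0.971) and Tagap (0.968). Nfkbie encodes an inhibitor of NF-κB, Egr2 an early transcription factor of antigen receptor signalling and Casp4 an inflammatory caspase. At 42 h Egr2 stood at 1.59 in WT, 1.95 in Tlr7-/-, 5.74 in Tlr9-/- and 5.39 in Tlr7/9-/- cells. Nfkbie stood at 0.02, 0.23, 1.39 and 1.43 in the same order. Most opposite were Kalrn (r -0.977), Rasgrp2 (-0.976), Cd36 (-0.971), Aif1 (-0.97) and Acap3 (-0.965). Rasgrp2, an activator of the small GTPase RAP1, stood at -1.12, -1.35, -3.34 and -3.50 at 42 h. The target genes followed Ahr less closely, with r of 0.521 for Ahrr and 0.408 for Tiparp, and Arnt had -0.524. By rank correlation, Nfkbie and Mfsd12 remained the closest pair, and 21 of the 50 closest genes were shared.

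**Figure D5:**
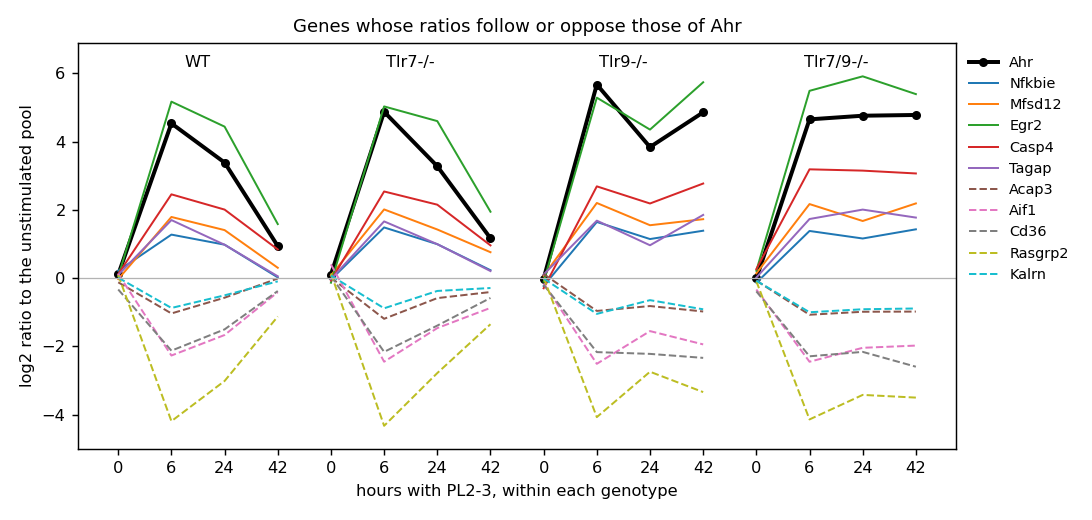
Log2 ratio to the unstimulated pool of Ahr (black), the 5 genes most like it (solid) and the 5 most opposite (dashed), by hours with PL2-3 within each genotype, 1 array per point. In cells with Tlr9 the lines return towards 0 at 42 h (Egr2 to 1.59 and 1.95), whereas without Tlr9 they stay away from it (Egr2 at 5.74 and 5.39).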

How the data were processed

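Per the file headers, Agilent Feature Extraction 10.1.1.1 read the images (62976 spots, 3671 of them controls). The deposited intensity columns used are each colour's mean foreground and median local background. The deposited processed intensity, background-subtracted and dye-normalized by the authors' software, served as an alternative. The authors' deposited series table holds log10 ratios of those processed signals, to within 5e-04, with column medians from -0.14 to 0.022. The deposited flags (0 or 1) gave outliers and signal above background. In R 4.3.3 with limma 3.58.1, background was corrected by normexp (offset 50) and colours were normalized by loess within each array, giving log2 ratios computed here, not by the authors. Control spots were left out, outlier spots set to missing and repeated probes averaged, and each gene was read by its brightest probe. Of 55681 probes, 27235 were named by accession, 3581 by symbol and 565 by an older symbol. Testing required a signal well above background, in Cy5 or Cy3, on 3 or more of the arrays compared. Fits (lmFit, eBayes) were 2-sided and p-values were adjusted by Benjamini-Hochberg over every gene tested. Differences from 0 h came from 12 arrays in a model of time and genotype (6 residual degrees of freedom). Genotypes were compared on 12 stimulated arrays in a model of genotype and time (8 residual degrees of freedom for the double knockout, 6 for the pairs), with no p-value given for Ahr, whose course chose the set. The scripts were tested on simulated data. Samples were grouped by genotype and time from the labels, and nothing says they were separate cultures or mice, so p-values measure only the spread between these samples. Named pathway genes were the up to 3 largest changes past the threshold in each list and comparison, plus Hsp90ab1, Nqo1, Cyp1a2, Slc7a5 and Hif1a. Ugt1a6b and Il4i1 were added after their values were seen. One gene of the receptor complex list and 1 erythroid marker are not reported here and were left out of the list counts and sums. Members, lists and tests were chosen with earlier results of these data known. Alternatives changed the background correction, offset, normalization, probe choice, filter, channel, variance model, slide block and the arrays included. Promoter sequences are from RefSeq (GRCm38.p6).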

Additional observations from a re-analysis of the deposited data

Results flagged for a closer look

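Between 24 and 42 h Ahr went in opposite directions with and without Tlr9. From 24 to 42 h it dropped by 2.45 log2 units in WT and dropped by 2.11 in Tlr7-/- cells, but 1.02 higher in Tlr9-/- and 0.02 higher in Tlr7/9-/- cells. The mean step without Tlr9 was 2.80 above that with Tlr9. This difference was not tested, and the step of 0.02 is near no change. Of 22927 genes, 5.48% had the same pattern of signs.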

How the results depend on the processing

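Every test of Ahrr, Tiparp and Arnt between genotypes stayed above an adjusted limma p of 0.05 under the alternatives run (lowest 0.0974 of 237 values). No paired analysis was possible because each genotype and time has 1 array and the labels carry no shared replicate numbers. Signal over background limits Ahrr, Cyp1a1, Cyp1b1 and the dimmer Ahr probe, and the number of arrays limits all tests. Where a value below differs from the report's and no reason is given, the cause was not tested.

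The difference of Ahr from 0 h at 6 h (4.96) and at 24 h (3.44) was 7.16 and 5.12 with Agilent's processed signals and with the deposited table, 5.77 and 4.26 with an offset of 10, 5.93 and 4.17 with median centring, and 2.71 and 1.83 with the mean of probes. At 42 h it was 2.26, and 0.95 without Tlr9-/- cells. The 42 h split of Ahr (3.77) was 3.57 with processed signals or the table, 3.90 without background subtraction or with median centring, 3.97 with an offset of 10 and 2.11 with the mean of probes. With slide as a block, Ahr in the double knockout against the others was -0.0598. Slide 2 held no other genotype than Tlr9-/- beside the double knockout, so that value is the difference from Tlr9-/- cells alone. Ahr in Tlr7-/- against WT was -0.35 with processed signals or the table, and in Tlr7/9-/- against Tlr9-/- it was 0.15 in the Cy5 channel alone and ranged from -0.55 to 0.42 when a time was left out. Genes with r over 0.9 to Ahr numbered 93, and 10 by rank.

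Counts of all genes called moved most. Median centring called 37 genes for Tlr9-/- against WT (13 in the report's fit), 6 for Tlr7/9-/- against Tlr9-/- and 2549 for Tlr7/9-/- against Tlr7-/-. It also raised the share of higher among called genes at 6 h from 49% to 75.7%, and at 24 h from 46.6% to 77%. Taking off each 0 h array called 9 for the double knockout against the others, 0 for Tlr7-/- against WT, 330 for Tlr9-/- against WT, 325 for Tlr9-/- against Tlr7-/-, 380 for Tlr7/9-/- against Tlr9-/- and 4 for Tlr7/9-/- against Tlr7-/-. Processed signals called 5, 12, 6 and 1 for the last 4 of these, and the deposited values gave 5, 12 and 1 for the same without Tlr7/9-/- against Tlr9-/-. The Cy5 channel called 18, 6 and 10 for the last 3. An offset of 10 called 173 for Tlr7/9-/- against Tlr7-/-, and the trend and robust variance 4 for Tlr7-/- against WT. For the double knockout the mean of probes called 1, and the slide block, which compares it with Tlr9-/- cells alone, called 7. Leaving out 1 genotype gave 4123 to 9906 genes at 42 h (8544 in all). Leaving out 1 time gave 0 to 6 genes for the double knockout, 4 to 16 for Tlr9-/- against WT, 5 to 14 for Tlr9-/- against Tlr7-/-, 5 to 6 for Tlr7/9-/- against Tlr9-/- and 4 to 16 for Tlr7/9-/- against Tlr7-/-.

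Member differences that turned direction were all uncalled. For Arnt they were -0.0843 with median centring and -0.0393 with the mean of probes (double knockout); -0.00989, -0.00204, -0.0418, -0.00886 and -0.193 with processed signals, an offset of 10, median centring, the table and Cy5 alone (Tlr7-/- against WT); 0.30 less 0 h (Tlr9-/- against WT); 0.0527 with Cy5 alone and 0.10 less 0 h (Tlr9-/- against Tlr7-/-); and -0.25 and -0.10 with median centring and the mean of probes (Tlr7/9-/- against Tlr7-/-). For Tiparp they were 0.13 with Cy5 alone and 0.23 less 0 h (Tlr7-/- against WT), and -0.45 and -0.43 with median centring (Tlr9-/- against WT and against Tlr7-/-). For Ahrr in Tlr7-/- against WT they were -0.12 with processed signals or the table and -0.0276 with an offset of 10. When a time was left out, Arnt ranged from -0.0665 to 0.0696 (Tlr7-/- against WT), -0.26 to 0.0358 (Tlr9-/- against WT) and -0.26 to 0.0551 (Tlr9-/- against Tlr7-/-), Tiparp from -0.12 to 0.0522, -0.14 to 0.19 and -0.19 to 0.32, and Ahrr from -0.00498 to 0.52 and -0.19 to 0.47 in the last pair of comparisons. Among the other pathway genes, falls that had passed the test turned direction, as did the uncalled 24 h value of Hif1a. Median centring gave Bach2 0.0509 at 6 h and 0.0061 at 24 h, Epas1 0.0205, Nfe2l2 0.18 and Hif1a 0.54 at 24 h, and Cy5 alone gave Hif1a 0.0308 at 24 h and Aldh3a1 0.0652 at 42 h. Of 559 alternative values of these genes, 502 kept direction and call and 49 lost the call, 13 of them in Cy5 alone, 9 with median centring and 10 without Tlr7-/- cells.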
